A study of Homo sapiens with 4 samples.

Results

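The expression of 30 genes of cholesterol and fatty acid synthesis was followed in Jurkat cells, a human T-cell acute lymphoblastic leukaemia line, after depletion of the long non-coding RNA ARIEL. The 30 genes were taken by name from the 22361 rows of the deposited table: sterol pathway enzymes, regulators of the sterol regulatory element binding proteins (SREBPs) and enzymes that make and desaturate fatty acids. All 30 had a row and all 30 were among the 14601 genes expressed highly enough to be tested. They do not cover every step of the pathways. The ARIEL knockdown group was 2 libraries from cells given a lentivirus with an shRNA to ARIEL, and the control group 2 libraries from cells given a lentivirus with an shRNA to GFP. All cells were grown in RPMI-1640 with 10% serum, infected by centrifugation in the presence of polybrene, selected with puromycin at 0.7 µg/ml for 36 h or more and collected at 72 h. The labels name 1 cell line and give no second shRNA sequence or rescue. Nothing says that the replicates were separate cultures, so a p-value here speaks of the spread between libraries, which may be technical. In the limma fit that spread was pooled over genes of like level, so an SE or p-value does not measure a gene's own spread. RNA was read from strand-specific libraries in pairs of 100 bases.

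Expression is given as rlog, the regularised log2 of normalised read counts, which pulls noisy values towards each gene's mean. Differences in rlog therefore understate a change, and the authors' own fold change is given beside them for some of the genes. The table holds no read totals, so the depth is unknown. The median rlog of all tested genes lay between 11.31 and 11.32 in the 4 libraries. The T-cell markers CD3D, CD3E, CD3G, CD2, CD7, LCK, PTPRC and LAT were all between 12.15 and 16.77, while MS4A1 of B cells, CSF1R of myeloid cells, EPCAM and CDH1 of epithelia, COL1A2 and DCN of fibroblasts and TTR of hepatocytes were listed at 0. Of the other B-cell markers CD79A had 11.23 and 11.25 in ARIEL knockdown libraries, against 10.91 and 10.99 in control libraries, and all other markers of these cell types were at 7.41 or less. The part of other cell types in the results was not tested. The locus XLOC_005968, which background knowledge of the study, and not the table, links to ARIEL, had rlog values of 10.58 and 10.55 in the ARIEL knockdown libraries, against 12.02 and 11.91 in the control libraries. These are bulk samples, in which fewer cells of a type and less RNA per cell cannot be told apart.

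Cells build cholesterol from acetyl-CoA through mevalonate, isoprenoid phosphates, squalene and lanosterol. The genes of this route are switched on together by SREBP2, encoded by SREBF2, while SREBP1, encoded by SREBF1, acts more on fatty acid synthesis. Both are made as precursors in the endoplasmic reticulum, where SCAP escorts them to the Golgi for cleavage when sterols are low and the INSIG proteins hold SCAP back when sterols are high. INSIG1 and INSIG2 differ in that INSIG1 is itself a strong SREBP target, so that its RNA is a common readout of the pathway. Proliferating lymphocytes draw on both routes for membrane lipids.

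The genes split instead of moving one way. Of the 30 genes, 10 rose and 9 fell in ARIEL knockdown libraries (limma, adjusted p under 0.05), against 22.1% and 22.4% of all 14601 tested genes. The count of rises was 4 without ARIEL knockdown replicate 2 and 5 without control replicate 1. Called genes were 19 of the 30, 44.4% of all tested genes and 53.0% of the 9140 genes whose mean rlog was at least that of PMVK, the lowest of the 30 at 10.18. In the authors' deposited table, at an adjusted p under 0.05, 9 of the 30 were higher and 10 lower, against 20.1% and 19.3% of genes with an adjusted p there. The groups did not overlap in 21 of the 30 genes, against 70.7% of all tested genes. The median difference of the 30 was 0.01, and that of all tested genes 0.00. By role, the falls lay in the feedback regulator INSIG1, in the steps from HMG-CoA to isoprenoids, in 3 of 11 later sterol enzymes and in the sterol carrier STARD4. Rises were called in the regulators SCAP and SREBF1, in MVD and in 3 others of the 11 later sterol enzymes. Of the 6 fatty acid genes 4 rose and none was called lower.

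**Figure D1:**
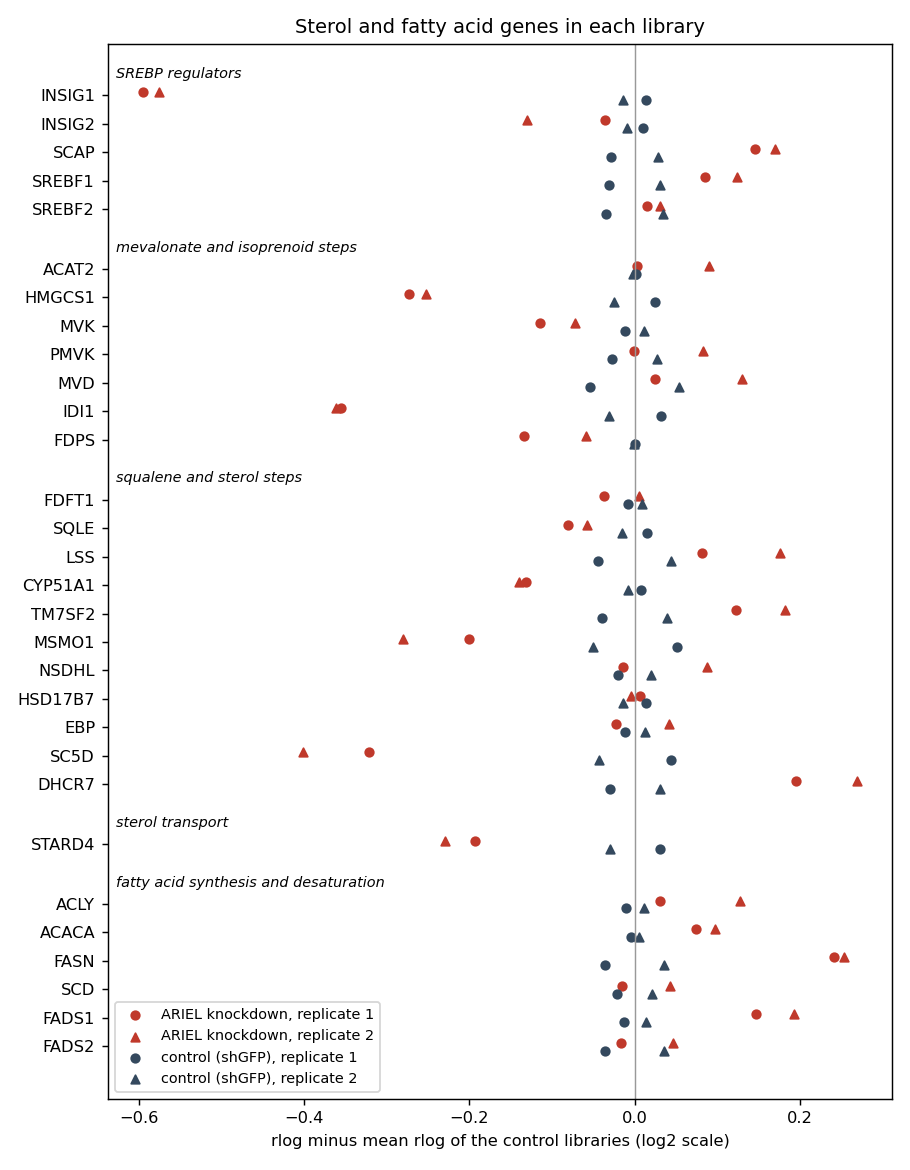
rlog value of each gene in each library, as its distance from the mean of the 2 control libraries (x axis, log2 scale), with genes grouped by role down the page. Red symbols are ARIEL knockdown libraries and dark symbols control libraries, with circles for replicate 1 and triangles for replicate 2. INSIG1, IDI1, SC5D, HMGCS1, MSMO1 and STARD4 stand to the left of both control values, and FASN, DHCR7, FADS1 and SCAP to the right.

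INSIG1, the sterol-sensing anchor of SCAP, had the largest difference of the 30. Its rlog values were 15.45 and 15.47 in ARIEL knockdown libraries, against 16.06 and 16.03 in control libraries. The groups were far apart beside the gap between replicates, and the difference was -0.58 ± 0.03 (SE, n = 2 per group; limma, adjusted p = 7.08e-70). The authors' deposited table has it 2.07-fold lower (log2 fold change -1.05 ± 0.05, SE). It ranked as number 52 among the falls of all 14601 tested genes. INSIG2, its paralogue, had 11.04 and 10.94 in knockdown libraries, against 11.08 and 11.06 in control libraries. The INSIG2 groups stood next to each other without overlap, and the difference of -0.08 ± 0.04 (SE) did not pass (limma, adjusted p = 0.0939). Whether the pair differ from each other in response was not tested.

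Of the SREBP escort and precursors, SCAP and SREBF1 were called higher and SREBF2 was not called. SCAP was 1.22-fold and SREBF1 1.14-fold higher in the authors' deposited table. SCAP had 14.04 and 14.06 in ARIEL knockdown libraries, against 13.87 and 13.92 in control libraries, a difference of 0.16 ± 0.03 (SE; limma, adjusted p = 5.83e-06). SREBF1 had 14.13 and 14.17 in knockdown libraries, against 14.02 and 14.08 in control libraries, a difference of 0.10 ± 0.03 (SE; limma, adjusted p = 0.00358). For SREBF1 the gap between the groups was about the size of the gap between its control libraries, and the call was lost without ARIEL knockdown replicate 2 (limma, adjusted p = 0.124) and without control replicate 1 (0.116). SREBF2 had 15.11 and 15.13 in knockdown libraries, against 15.06 and 15.13 in control libraries. The SREBF2 groups overlapped and the difference was 0.02 ± 0.03 (SE; limma, adjusted p = 0.597). The RNA of the factor that drives the sterol genes was thus not called in either direction.

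Promoters are shown for the 3 genes, among the 26 of the 30 with a RefSeq promoter window (GRCh38.p14, 250 bases before the start to 50 after), that hold a match to TCANNCCAC on either strand, a loose form of the sterol regulatory element bound by SREBPs. Capitals mark that match, CACGTG (the palindromic E-box) and CCAAT or its reverse complement ATTGG (the NF-Y box, whose factor works beside SREBPs).
INSIG1, chr7:155297628-155297927, plus strand: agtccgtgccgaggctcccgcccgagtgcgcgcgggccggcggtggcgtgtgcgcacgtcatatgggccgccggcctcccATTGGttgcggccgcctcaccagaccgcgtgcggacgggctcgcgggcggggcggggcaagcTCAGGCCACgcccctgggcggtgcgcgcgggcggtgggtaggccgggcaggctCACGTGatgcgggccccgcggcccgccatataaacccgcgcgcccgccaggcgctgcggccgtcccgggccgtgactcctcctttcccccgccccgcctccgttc
SREBF2, chr22:41832855-41833154, plus strand: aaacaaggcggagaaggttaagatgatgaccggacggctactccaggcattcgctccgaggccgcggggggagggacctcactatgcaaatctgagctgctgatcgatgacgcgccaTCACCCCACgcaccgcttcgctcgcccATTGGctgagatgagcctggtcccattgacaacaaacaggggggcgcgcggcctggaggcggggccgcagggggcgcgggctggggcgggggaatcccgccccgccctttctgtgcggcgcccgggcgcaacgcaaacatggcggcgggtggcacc
ACLY, chr17:41918973-41919272, minus strand: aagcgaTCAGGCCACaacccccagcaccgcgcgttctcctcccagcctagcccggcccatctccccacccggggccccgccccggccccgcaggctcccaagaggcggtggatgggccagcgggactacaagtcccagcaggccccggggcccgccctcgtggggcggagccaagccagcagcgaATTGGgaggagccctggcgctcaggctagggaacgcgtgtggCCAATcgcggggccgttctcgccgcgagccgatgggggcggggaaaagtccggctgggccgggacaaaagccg

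The 3 genes with this match went different ways: INSIG1 fell, SREBF2 was not called and ACLY rose slightly. SREBF2 alone held the stricter form TCACNCCAC, which overlaps the looser one by construction. TCANNCCAC was found in the windows of 4.74% of 27305 genes and TCACNCCAC in 1.39%. In INSIG1 the match began at position -108 from the start and CACGTG at position -55. CACGTG was also present in SC5D, which fell, and in LSS and SCAP, which rose, against 8.77% of all genes. A gene with more than 1 window was counted once if any of them held the motif. FASN, SQLE, FDFT1 and ACAT2 had no promoter window and were not searched. A CCAAT box was found in 20 of the 26 genes, that is in 6 of 9 that rose, 8 of 9 that fell and 6 of 8 not called, against 39.7% of all genes. GGGCGG, the Sp1 box, was in 25 of the 26, against 48.3% of all genes. For these motifs, all genes means the 27305 with a promoter window, whether or not they were expressed in these cells. The shares are therefore not matched to the 26 genes, which were all expressed. Such matches describe letters, and no binding was measured.

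Of the 7 enzymes from ACAT2 to FDPS, at the head of the pathway, 4 fell, 1 rose and 2 were not called, with a median difference of -0.09. HMGCS1, which makes HMG-CoA, had 15.36 and 15.38 in ARIEL knockdown libraries, against 15.66 and 15.61 in control libraries, a difference of -0.26 ± 0.03 (SE; limma, adjusted p = 7.21e-15). IDI1, the isopentenyl diphosphate isomerase, had 14.12 and 14.11 in knockdown libraries, against 14.50 and 14.44 in control libraries. The knockdown replicates nearly coincided well under both controls, and the IDI1 difference was -0.36 ± 0.03 (SE; limma, adjusted p = 1.51e-27). The authors' deposited table has HMGCS1 1.38-fold and IDI1 1.56-fold lower.

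Smaller changes were seen at the steps around them. FDPS, which makes farnesyl diphosphate, had 16.12 and 16.20 in ARIEL knockdown libraries, against 16.26 in each control library, a difference of -0.10 ± 0.03 (SE; limma, adjusted p = 0.0103). MVK, mevalonate kinase, had 12.13 and 12.17 in knockdown libraries, against 12.23 and 12.26 in control libraries, a difference of -0.09 ± 0.04 (SE; limma, adjusted p = 0.0250). In both genes the groups stood close to each other without overlap. The FDPS call was lost without knockdown replicate 1 (limma, adjusted p = 0.273), control replicate 1 (0.0628) or control replicate 2 (0.0538), and the MVK call without knockdown replicate 1 (0.242), knockdown replicate 2 (0.0600) or control replicate 2 (0.0994). MVD, which decarboxylates mevalonate diphosphate, was called higher at 0.08 ± 0.03 (SE; limma, adjusted p = 0.0348), but its groups overlapped, with 14.37 and 14.48 in knockdown and 14.29 and 14.40 in control libraries. Its call was lost without knockdown replicate 2 (0.707) and without control replicate 1 (0.672), and it was not called in the authors' deposited table (adjusted p = 0.127). ACAT2, the cytosolic thiolase, and PMVK, phosphomevalonate kinase, had differences of 0.05 ± 0.03 and 0.04 ± 0.05 (SE) and were not called.

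From squalene to cholesterol, 3 of 11 enzymes fell, 3 rose and 5 were not called, with a median of 0.00. The falls were in SC5D, MSMO1 and CYP51A1. SC5D, the sterol C5-desaturase, had 11.30 and 11.22 in ARIEL knockdown libraries, against 11.66 and 11.58 in control libraries, a difference of -0.36 ± 0.04 (SE; limma, adjusted p = 3.38e-18). MSMO1, which removes the C4 methyl groups of lanosterol products, had 13.86 and 13.78 in knockdown libraries, against 14.11 and 14.01 in control libraries, a difference of -0.24 ± 0.03 (SE; limma, adjusted p = 1.25e-12). In both, replicate 2 was the lower one within each group, and the groups stayed apart. CYP51A1, the lanosterol demethylase, had 11.88 and 11.87 in knockdown libraries, against 12.02 and 12.01 in control libraries, a difference of -0.14 ± 0.04 (SE; limma, adjusted p = 0.00108). The authors' deposited table has these genes 1.60-fold, 1.35-fold and 1.19-fold lower.

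The 3 sterol enzymes that rose were DHCR7, TM7SF2 and LSS. DHCR7, which makes cholesterol from 7-dehydrocholesterol, had 14.25 and 14.32 in ARIEL knockdown libraries, against 14.02 and 14.08 in control libraries, a difference of 0.23 ± 0.03 (SE; limma, adjusted p = 5.97e-12). It uses the product of SC5D, so neighbouring steps of the pathway moved in opposite directions. TM7SF2, a sterol C14-reductase, had 11.89 and 11.95 in knockdown libraries, against 11.73 and 11.81 in control libraries, a difference of 0.15 ± 0.04 (SE; limma, adjusted p = 0.000262). LSS, lanosterol synthase, had 15.73 and 15.82 in knockdown libraries, against 15.60 and 15.69 in control libraries, a difference of 0.13 ± 0.03 (SE; limma, adjusted p = 0.000317). Without knockdown replicate 2 the calls of LSS (limma, adjusted p = 0.131) and TM7SF2 (0.0528) were lost, and without control replicate 1 that of LSS (0.0954). The lower control and knockdown values of each were in replicate 1. DHCR7 was 1.33-fold, TM7SF2 1.21-fold and LSS 1.17-fold higher in the authors' deposited table. The rate-limiting epoxidase SQLE had a difference of -0.07 ± 0.03 (SE) that did not pass (limma, adjusted p = 0.0616), though the authors' deposited table gives an adjusted p of 0.0407. FDFT1, which makes squalene, and NSDHL, HSD17B7 and EBP, which act on the sterol ring and its methyl groups, lay between -0.02 and 0.04 and were not called.

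STARD4, a soluble carrier that moves cholesterol between membranes and an SREBP target, also fell. It had 13.49 and 13.46 in ARIEL knockdown libraries, against 13.72 and 13.66 in control libraries, a difference of -0.21 ± 0.03 (SE; limma, adjusted p = 9.83e-10). Its groups did not overlap, and the authors' deposited table has it 1.30-fold lower. Once the trend with GC content and transcript length was removed the difference was -0.08 ± 0.02 (SE).

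Of the 6 fatty acid genes, 4 rose and 2 were not called, with a median difference of 0.08. Whether they differ from the sterol genes was not tested. FASN, the fatty acid synthase, had 15.36 and 15.38 in ARIEL knockdown libraries, against 15.09 and 15.16 in control libraries, a difference of 0.25 ± 0.03 (SE; limma, adjusted p = 1.83e-13) and the largest rise of the 30. FADS1, the delta-5 desaturase, had 14.65 and 14.69 in knockdown libraries, against 14.49 and 14.51 in control libraries, a difference of 0.17 ± 0.03 (SE; limma, adjusted p = 6.96e-07). Both genes were higher in each knockdown library than in any control library, and the authors' deposited table has FASN 1.36-fold and FADS1 1.23-fold higher. ACACA, the acetyl-CoA carboxylase that makes malonyl-CoA, had 14.47 and 14.49 in knockdown libraries, against 14.39 and 14.40 in control libraries, a difference of 0.09 ± 0.03 (SE; limma, adjusted p = 0.0184). ACLY, which makes cytosolic acetyl-CoA from citrate, had 15.99 and 16.09 in knockdown libraries, against 15.95 and 15.97 in control libraries, a difference of 0.08 ± 0.03 (SE; limma, adjusted p = 0.0360). The calls of ACACA and ACLY were each lost on leaving out any of 3 libraries, at adjusted p (limma) from 0.0566 to 0.182 for ACACA without knockdown replicate 1, knockdown replicate 2 or control replicate 1, and from 0.0688 to 0.621 for ACLY without knockdown replicate 2, control replicate 1 or control replicate 2. Without knockdown replicate 2 or control replicate 1, only FASN and FADS1 of these 6 genes were called.

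The desaturases SCD and FADS2 were not called. SCD, the stearoyl-CoA desaturase, had 16.85 and 16.91 in ARIEL knockdown libraries, against 16.85 and 16.89 in control libraries, a difference of 0.01 ± 0.03 (SE; limma, adjusted p = 0.769). FADS2, the delta-6 desaturase, had 16.28 and 16.34 in knockdown libraries, against 16.26 and 16.33 in control libraries, a difference of 0.02 ± 0.03 (SE; limma, adjusted p = 0.741). Both genes had overlapping groups. FADS1 and FADS2 are neighbours on chromosome 11, and whether their responses differ was not tested.

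The base composition of the transcripts moved with these results. In all 12719 tested genes with a GENCODE 29 transcript, the median difference was higher at higher GC content, at 0.08 in the top decile and -0.08 in the bottom one. Of the genes described here, the 9 that fell had a median GC content of 41.1% (34.2% to 59.4%), the 9 risen ones with a transcript 62.0% (50.1% to 65.6%) and the 11 not called 50.2% (36.9% to 60.7%). ACACA had no transcript under its identifier. Across the 29 genes, the difference and GC content had Pearson's r of 0.70 and Spearman's rho of 0.76, a description over genes that share the same 4 libraries. Replicates differed along the same axis: r with GC content was 0.89 for control replicate 2 minus replicate 1 and 0.67 for knockdown replicate 2 minus replicate 1. As a description, since these genes were taken by their calls, 6 of the 9 rises lay above the middle 50% of genes in their own GC decile and all 9 falls below it.

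**Figure D2:**
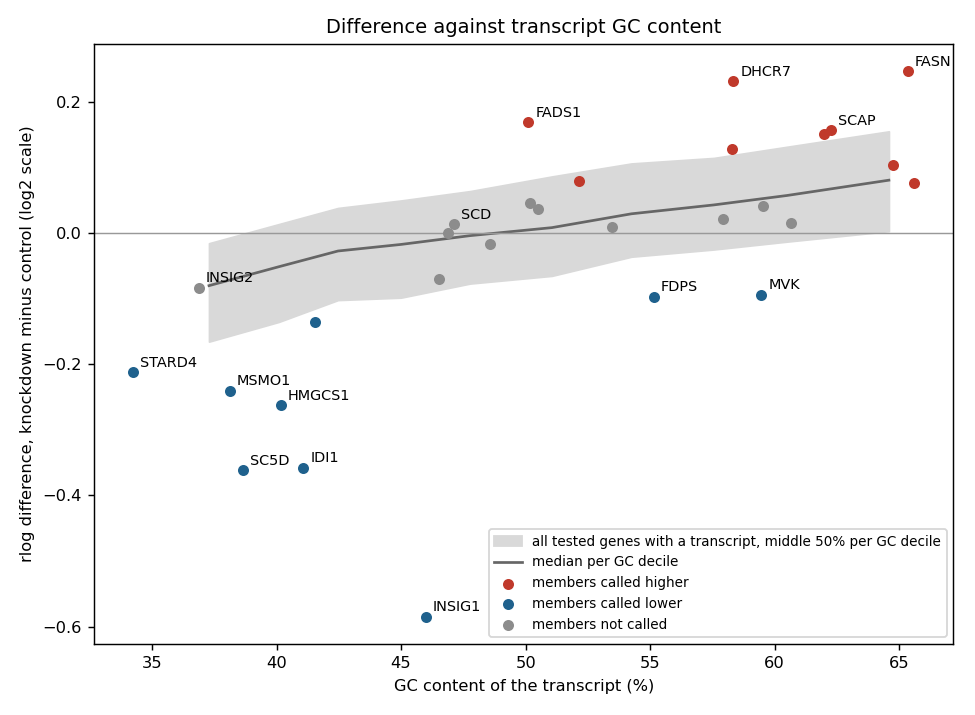
rlog difference, ARIEL knockdown minus control (y axis, log2 scale), against GC content of the transcript (x axis, %) for 29 genes, coloured by call. The grey line and band give the median and the middle 50% of all 12719 tested genes with a transcript, by decile of GC content; INSIG1 at 46.0% GC lies far below the band, while SREBF1 and MVD at the GC-rich end lie inside it.

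With the trend of each library with GC content and transcript length removed, 8 of 29 genes were higher and 10 lower, against 29.0% and 24.1% of the 12719 genes. INSIG1 then differed by -0.56 ± 0.02 (SE), IDI1 by -0.31 ± 0.02, SC5D by -0.30 ± 0.03, HMGCS1 by -0.20 ± 0.02 and MSMO1 by -0.18 ± 0.02. FASN differed by 0.20 ± 0.02 (SE), FADS1 by 0.19 ± 0.02, DHCR7 by 0.18 ± 0.02 and SCAP by 0.11 ± 0.02. These stayed called, and STARD4, the most AT-rich transcript of the set, kept its call at the smaller value given above and TM7SF2 at 0.07 ± 0.03. SREBF1 was no longer called, at 0.04 ± 0.02 (SE; limma, adjusted p = 0.0713), and MVD had -0.02 ± 0.02 (limma, adjusted p = 0.473). FDPS and MVK, which are GC-rich yet fell, had larger differences of -0.15 ± 0.02 and -0.14 ± 0.02. SQLE was then called lower (-0.05 ± 0.02, SE; limma, adjusted p = 0.0452; 0.0513 and not called with the replicate number as a block) and ACAT2 higher (0.05 ± 0.02, SE; limma, adjusted p = 0.0488). Across the 29 genes r with GC content was still 0.50.

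**Figure D3:**
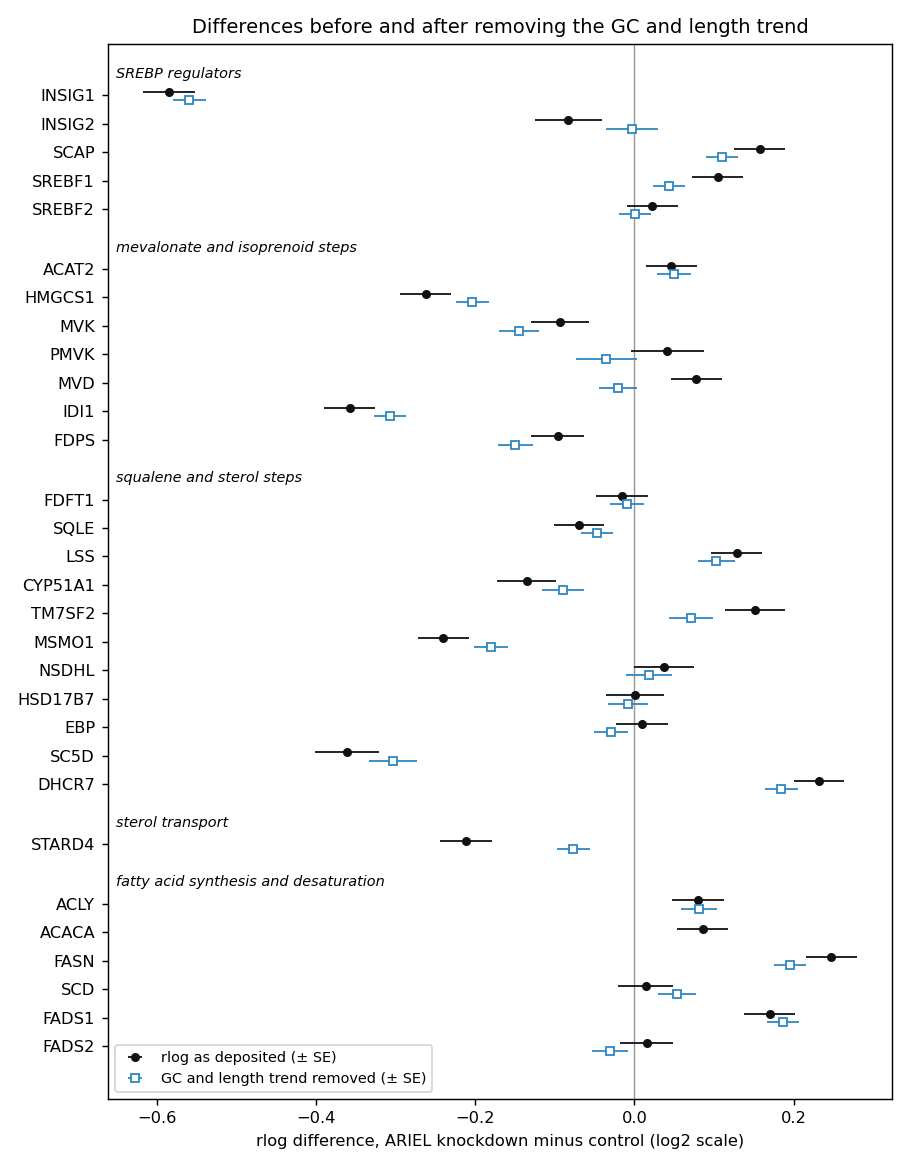
rlog difference, ARIEL knockdown minus control (x axis, log2 scale, ± SE), for each gene by role. Filled circles use the rlog values as deposited and open squares the values with the GC and length trend of each library removed; ACACA has no square. INSIG1, IDI1, SC5D and FASN keep their sides, STARD4 moves towards 0 and MVD crosses it.

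In all, 11 of the 19 calls held under every alternative that pooled the spread over genes, the authors' table and each left-out library included. These were the falls of INSIG1, IDI1, SC5D, HMGCS1, MSMO1, STARD4 and CYP51A1 and the rises of FASN, DHCR7, FADS1 and SCAP. Where every gene kept a variance of its own, estimated with 2 residual degrees of freedom, none of the 30 passed. INSIG1 came closest (limma without pooling, adjusted p = 0.0748). In that fit 11 of the 30 had an unadjusted p under 0.05, against 4561 of all 14601 tested genes.

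Windows of 29 bases are shown from the 3′ UTRs of INSIG1 and LSS, because both hold a 7-base word whose carriers an earlier look at these data found to be lower. The word, AGATGAC, is in capitals, and the sequences come from GENCODE 29 transcripts on GRCh38.
INSIG1, chr7:155309095-155309123, plus strand: ctacagaatagAGATGACtgttttttgcc
LSS, chr21:46188556-46188584, minus strand: tgacctgtcccAGATGACtcatcaccctg

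INSIG1 fell and LSS rose, so the 2 carriers among 29 searched genes went opposite ways. AGATGAC or the overlapping word GATGACA was found in 16.2% of 12533 searched genes, whose median difference was -0.05, against 0.01 for genes with neither. The words were taken from these same data for their lower carriers, so this gap was set in advance and is no separate evidence. The trend with GC content and length was not removed from these medians. A second pair of words, TGTTGTC or GTTGTCA, was searched because the earlier look linked it to rises. MVK and STARD4 held it among the 29 genes, and both fell. It was in 17.8% of the searched genes, with a median difference of -0.003, against 0.004 for genes without it. The part of these words in the differences was not tested.

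Genes around the pathway were read from 6 further lists, chosen by role. Of 105 names, 101 had a row and 97 were tested. The names without a row, SPRING1, HACD1, HACD2 and HACD3, are newer symbols of C12orf49, PTPLA, PTPLB and PTPLAD1, which had rows. Of the 97 tested, 21 rose and 24 fell, a share near the 22.1% and 22.4% of all genes, with a median of -0.01. Without ARIEL knockdown replicate 2 these counts were 11 and 14. Among SREBP processing and partner genes 7 of 14 fell and 1 rose, with a median of -0.06, and 4 fell without ARIEL knockdown replicate 2 or without control replicate 1. RNF139, a ubiquitin ligase of the endoplasmic reticulum that binds INSIG proteins, had 11.83 and 11.75 in ARIEL knockdown libraries, against 12.10 and 12.09 in control libraries, a difference of -0.31 ± 0.04 (SE; limma, adjusted p = 5.33e-15). SP1, a zinc finger factor that acts with SREBPs on promoters, differed by -0.17 ± 0.03 (SE). ERLIN1, a sterol-binding protein of the endoplasmic reticulum, differed by -0.16 ± 0.03 (SE). Once the GC and length trend was removed, 5 of these 14 genes fell and 2 rose, with a median of -0.04.

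Among 18 genes of sterol storage and export 4 rose and 4 fell, with a median of -0.03. The falls numbered 1 without ARIEL knockdown replicate 1, 2 without ARIEL knockdown replicate 2 and 2 without control replicate 1. SOAT1, which esterifies cholesterol for storage, averaged 13.02 ± 0.03 in ARIEL knockdown libraries and 13.28 ± 0.04 in control libraries (SD, n = 2 each), a difference of -0.26 ± 0.03 (SE; limma, adjusted p = 2.05e-13). NR1H2, the oxysterol receptor LXR beta, had 12.31 in each knockdown library, against 11.99 and 12.03 in control libraries, a difference of 0.30 ± 0.04 (SE; limma, adjusted p = 8.25e-15). OSBPL2, an oxysterol-binding protein, rose by 0.23 ± 0.04 (SE). In the isoprenoid branch 4 of 14 rose and 3 fell, with a median of 0.06, and 7 rose and 1 fell once the GC and length trend was removed. There the farnesyltransferase subunit gene FNTB rose by 0.22 ± 0.04 (SE), while the prenyltransferase subunit genes RABGGTB and PGGT1B each differed by -0.17, with SEs of 0.03 and 0.04. Without that trend PGGT1B was at -0.02 and not called (limma, adjusted p = 0.552).

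Genes that feed and use fatty acids also went both ways. In the citrate, acetyl-CoA and NADPH list 5 of 16 rose and 2 fell (median 0.05). Without ARIEL knockdown replicate 2 or without control replicate 1 the rises numbered 1. The list held the AMP-activated kinase subunit gene PRKAB1 at -0.13 ± 0.03 (SE) and the malonyl-CoA decarboxylase gene MLYCD at 0.16 ± 0.04. Of 19 elongation, desaturation and activation genes 5 rose and 4 fell (median -0.04), and leaving out either of the ARIEL knockdown libraries gave 3 rises, with 1 fall without ARIEL knockdown replicate 2. They included the acyl-CoA synthetase gene ACSL3 at 0.15 ± 0.03 (SE), FADS3 at 0.19 ± 0.04 and the elongase gene ELOVL5 at -0.13 ± 0.03. The ELOVL5 call was lost without ARIEL knockdown replicate 2 (limma, adjusted p = 0.0844) and without control replicate 1 (0.0714). Of 16 mitochondrial fatty acid oxidation genes 2 rose and 4 fell (median -0.03), and 7 fell once the GC and length trend was removed. On leaving out either of the ARIEL knockdown libraries, or control replicate 2, the rises numbered 1. Among the falls were the dehydrogenase gene ACADM at -0.24 ± 0.03 (SE), the carnitine palmitoyltransferase gene CPT2 at -0.19 ± 0.04 and the thiolase gene ACAA2 at -0.17 ± 0.03.

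**Figure D4:**
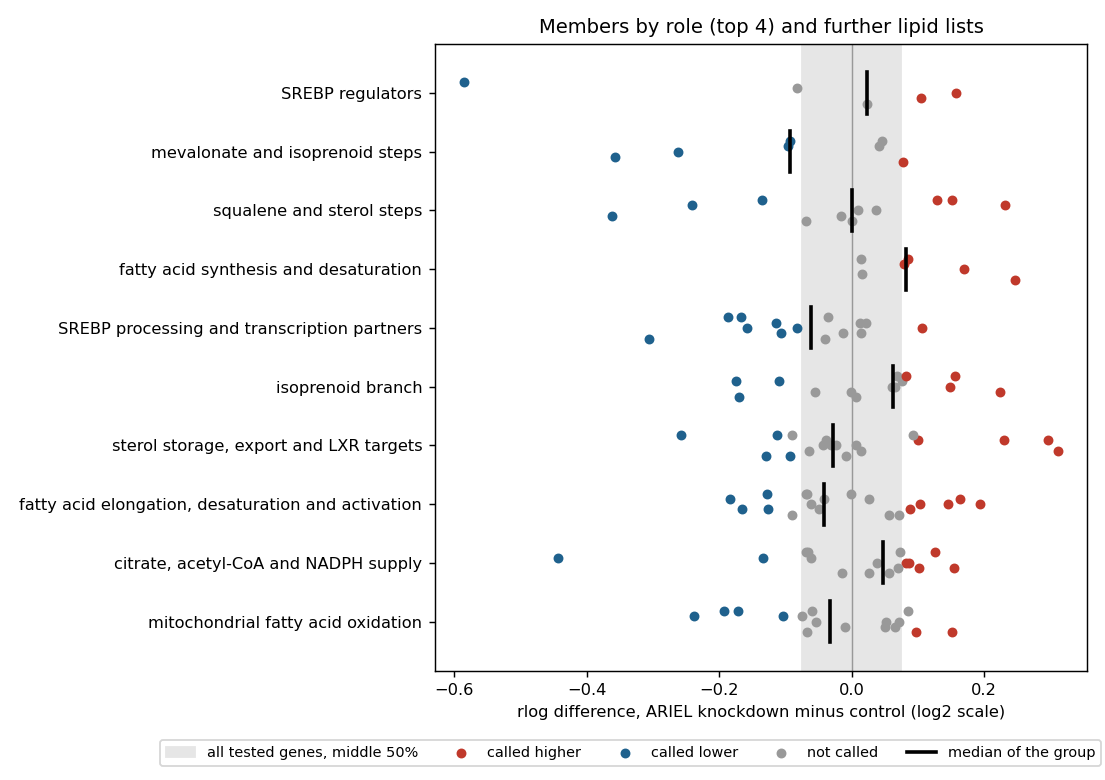
rlog difference, ARIEL knockdown minus control (x axis, log2 scale), of each tested gene in the 4 role groups of the 30 genes with more than 1 gene (top) and in the 6 further lists. Each point is a gene, coloured by call, black bars are group medians and the grey band holds the middle 50% of all tested genes. INSIG1, IDI1, SC5D and RNF139 lie below -0.30.

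Some rows share sequence with other genes. In GENCODE 29, exons of TM7SF2 overlap VPS51 and those of FADS2 overlap FEN1 on the same strand. Exons of CYP51A1 overlap AC000120.2 and AC000120.3 on the same strand. Reads in these overlaps can match either gene. FADS1 overlaps FADS2, MVK overlaps MMAB, and ACAT2 overlaps TCP1 and SOD2, on opposite strands. Exons of IDI1, HMGCS1, STARD4, CYP51A1, FDPS, LSS, SREBF2, ACLY and FDFT1 overlap non-coding genes on the opposite strand. Whether counting used strand is not given in the sources used here. Pseudogenes named after FDPS (8), CYP51A1 (3), HSD17B7 (2), SCD (1) and FADS2 (1) are annotated, and reads of these genes may match them too. Whether such ambiguous reads were counted or left out is not given in the sources used here.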

How the data were processed

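RNA of 4 Jurkat libraries was sequenced, 2 with an shRNA to ARIEL and 2 with an shRNA to GFP, grouped and numbered by the sample titles. Software named in the submitters' processing notes, with no roles given, is DESeq2 1.12.4, HTSeq 0.6.1 and STAR 2.5.2a, and the build is hg19. Per the file headers, the authors' table gives for every gene the rlog of each library, which is on a log2 scale, a log2 fold change and its error, a score (their ratio), a p-value and an adjusted p-value. Depth is unknown, and 0 spike-in rows are present. No coordinates were taken from the table.

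The design allowed for counts. As the values are logarithms, limma 3.58.1 (R 4.3.3; lmFit, eBayes with a trend on level) was run on rlog with no pseudocount over the 14601 genes with a mean of at least log2 of 10, with Benjamini-Hochberg adjustment at 0.05, two-sided. The spread was pooled fully over genes of like level. The fit was tried on simulated data drawn with the same pooled spread, so that trial could not test the pooling.

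GC content, length and 3′ UTRs came from GENCODE 29 (longest basic coding transcript, or longest 3′ UTR). The trend of each library with GC content and length was removed by splines (5 degrees of freedom each). Promoters are RefSeq windows. Python 3.11.15 was used.

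The genes and lists were chosen with earlier results of these data known. Values per library are given by rule for the regulators, FASN, ACACA, SCD, ACLY and the 12 called genes with the largest differences among those without overlap. LSS, FDPS, MVK, MVD and FADS2 were added after their values were seen. Up to 3 called genes per further list, by smallest adjusted p, are named, and 1 such gene is not reported here.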

Additional observations from a re-analysis of the deposited data

How the results depend on the processing

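With each gene's own variance in place of the pooled spread, no gene was called: 0 of the 30 higher and 0 lower, 0 and 0 in the 6 further lists and 0 and 0 over all tested genes, where 4561 genes had an unadjusted p under 0.05. Leaving out 1 library at a time, between 4 and 9 of the 30 were called higher, with 4 without ARIEL knockdown replicate 2 and 5 without control replicate 1, and between 7 and 8 lower. In the further lists 11 to 17 were called higher and 14 to 28 lower, and over all tested genes 2004 to 3061 higher and 2221 to 3127 lower, the lowest of each without ARIEL knockdown replicate 2. A fit with 2 libraries against 1 assumes that the lone library varies like the others. MVD changed sign once the trend with GC content and length was removed, at -0.0207 without and -0.0207 with the replicate block, and was not called. The labels do not say what a replicate number marks, and over all tested genes replicate 2 minus replicate 1 had r = 0.20 between the groups. With the replicate block all 19 calls were kept and INSIG2 and SQLE were added, while the further lists had 30 higher and 34 lower. The block gave 8 higher and 5 lower in the citrate list, 5 and 7 in fatty acid oxidation and 6 and 7 in elongation, desaturation and activation. The stricter filter and the robust spread kept all 19 calls. No filter and quantile normalization each lost MVD and ACLY, and quantile normalization added SQLE. The authors' deposited statistics lost MVD and added SQLE. Depth is unknown, so what it limits could not be given.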
